A study of Mus musculus with 2 samples.

Results

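The *Tnf* and NF-κB axis was followed in the mouse cornea through 10 genes of the 20198 in the deposited table: the cytokine gene *Tnf*, the Rel family genes *Nfkb1*, *Nfkb2* and *Relb*, the inhibitor genes *Nfkbia*, *Nfkbiz*, *Tnfaip3* and *Zc3h12a*, the survival gene *Birc3* and the adhesion gene *Icam1*. They were chosen by name, and all 10 had a column of unique molecular identifier (UMI) counts, that is, of RNA molecules per cell. The data were 2 single-cell libraries of whole dissociated corneas from male mice of 6 to 8 weeks. UW pooled the corneas of 4 unwounded mice. W pooled those of 4 mice taken 24 h after the central epithelium had been scraped off inside a marked circle, with the stroma spared. No strain or genetic change was named in the sources used here, and both groups went through the same 18 h cold dispase step and warm enzyme steps.

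TNF is a cytokine that binds 2 receptors, TNFR1 on most cells and TNFR2 mainly on leukocytes and endothelium, and the signal frees NF-κB dimers from IκB proteins in the cytoplasm. The freed dimers switch on inflammatory genes, adhesion genes and, among the first, the genes of their own inhibitors, so that *Nfkbia* and *Tnfaip3* are both targets and brakes. In skin and cornea this pathway is known for its part in the early response to injury, in which resident cells call in leukocytes.

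UW held 16450 cells and W 12417, with medians of 22014 and 20290 UMIs per cell, and 52 barcodes occurred in both libraries. Cells were taken by the 17 deposited cluster numbers. Clusters 1 to 6, 8, 9 and 11 scored highest for epithelial markers, cluster 0 for stromal markers, cluster 15 for monocyte and macrophage markers and cluster 16 for T cell markers, and these are called epithelial-like, stromal-like, Mono-like and T-like here. Cluster 7, led by the cornified envelope genes *Lce3a* and *Crct1* and by *Krt23*, had all 8 epithelial markers at 10 CPM (UMIs of a gene per 1000000 UMIs of the group) or more but a mean marker score below that of the average cluster (-0.35 on the log2 scale), and it is called by its number and added to the epithelial sum. Cluster 10, led by *Penk* and *Myoc*, also scored highest for stromal markers (5.39, beside 5.64 in cluster 0), with corneal endothelial markers at 3.92. Cluster 13, led by *Ccl3* and *Acod1*, scored highest for neutrophil markers (6.69), with all 5 detected. Both stay with their numbers here, as do cluster 14, led by MHC class II genes and *C1qa*, and cluster 17, with 29 cells. The name stromal-like below means cluster 0 alone. Clusters 13 to 16 held 1530 cells in W and 15 in UW, so immune levels of the unwounded cornea could not be given. There was 1 library per condition. No test was therefore made, and every interval below is a 95% interval that covers counting error only, not the spread between cells or between mice.

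The promoters of 7 members were found in the RefSeq table (GRCm38.p6), and 4 are shown because sites for NF-κB are a textbook feature of genes in this feedback loop. Capitals mark matches, on either strand, of GGGNNNTTCC, a common form of the NF-κB site, or of GGAAATTCC, and each line runs from 250 bases before the transcript start to 50 bases after it.
*Nfkbia*: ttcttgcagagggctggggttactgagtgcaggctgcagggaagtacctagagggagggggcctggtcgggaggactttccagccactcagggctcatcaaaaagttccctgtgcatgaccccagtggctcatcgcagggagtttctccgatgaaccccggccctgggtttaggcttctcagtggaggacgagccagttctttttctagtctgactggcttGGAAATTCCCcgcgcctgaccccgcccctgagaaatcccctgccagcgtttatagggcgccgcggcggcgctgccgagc
*Tnfaip3*: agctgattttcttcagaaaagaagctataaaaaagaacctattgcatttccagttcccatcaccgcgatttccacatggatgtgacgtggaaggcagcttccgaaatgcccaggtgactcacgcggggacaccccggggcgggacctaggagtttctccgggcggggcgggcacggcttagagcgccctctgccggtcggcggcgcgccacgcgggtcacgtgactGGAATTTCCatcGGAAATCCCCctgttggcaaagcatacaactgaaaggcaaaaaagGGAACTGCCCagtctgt
*Icam1*: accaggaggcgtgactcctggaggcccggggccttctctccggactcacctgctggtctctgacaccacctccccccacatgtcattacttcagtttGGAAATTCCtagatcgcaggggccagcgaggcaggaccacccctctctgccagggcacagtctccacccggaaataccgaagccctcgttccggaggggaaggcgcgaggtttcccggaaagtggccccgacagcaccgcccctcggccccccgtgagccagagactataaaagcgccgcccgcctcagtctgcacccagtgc
*Tnf*: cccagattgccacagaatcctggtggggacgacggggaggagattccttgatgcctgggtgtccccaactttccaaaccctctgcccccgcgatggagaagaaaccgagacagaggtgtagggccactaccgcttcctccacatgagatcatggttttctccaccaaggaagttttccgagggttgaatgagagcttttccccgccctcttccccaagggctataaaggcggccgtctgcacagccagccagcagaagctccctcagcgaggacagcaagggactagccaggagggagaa
The *Nfkbia* promoter (chr12:55492598-55492897, minus strand) held both motifs on the same bases, starting 29 bases before the start. The *Tnfaip3* promoter shown (chr10:19015361-19015660, minus strand) held 3 matches, and another of its promoters, not shown, held 1. The *Icam1* promoter (chr9:21015690-21015989, plus strand) held GGAAATTCC alone. Neither motif was in the *Tnf* window (chr17:35201958-35202257, minus strand). GGGNNNTTCC occurred in 5.56% of all 32851 promoters and GGAAATTCC in 0.317%, while 3 of the 7 members with an entry (*Nfkb2*, *Nfkbia* and *Tnfaip3*) held the first and 3 (*Nfkbia*, *Tnfaip3* and *Icam1*) the second. The percentages are per promoter, whereas the 7 members were counted by gene over 10 promoters. *Nfkb2* and *Tnfaip3* had several each, so the units differ. A match is a stretch of letters and not a measured binding site.

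*Tnf*, the ligand (chr17:35199381-35202007, GRCm38), was carried in the unwounded cornea by cluster 7. There it stood at 219 CPM in UW (interval 214 to 224, 7938 UMIs) and at 80.8 CPM in W (75.8 to 86.0, 965 UMIs). The log2 ratio of W over UW was -1.44 (-1.53 to -1.34), a 2.71-fold lower level in W. In UW the other clusters with 50 cells or more lay between 1.05 and 9.24 CPM.

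Other epithelial clusters went the opposite way. In cluster 2, led by *Ly6g6c* and *Spink5*, *Tnf* was 2.11 CPM in UW and 12.8 CPM in W (log2 ratio 2.60, 2.29 to 2.91). In cluster 6, led by *Upk3b* and *Krt78*, it was 3.88 and 17.5 CPM (2.17, 1.89 to 2.46), and in cluster 4, led by *Cldn17* and *Dsg1a*, 1.37 and 5.38 CPM (1.98, 1.52 to 2.45). Clusters 5 and 3 were also higher in W, by 0.95 (0.74 to 1.17) and 0.84 (0.36 to 1.32) on the log2 scale, the latter with an interval that reached 0 once cells with an immune UMI were left out (0.40, -0.17 to 0.96). In clusters 1, 8, 9, 11, 0 and 10 the interval of the ratio held 0. The stromal-like cells had 1.55 CPM in UW and 1.11 CPM in W, on 44 and 36 UMIs.

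**Figure D1:**
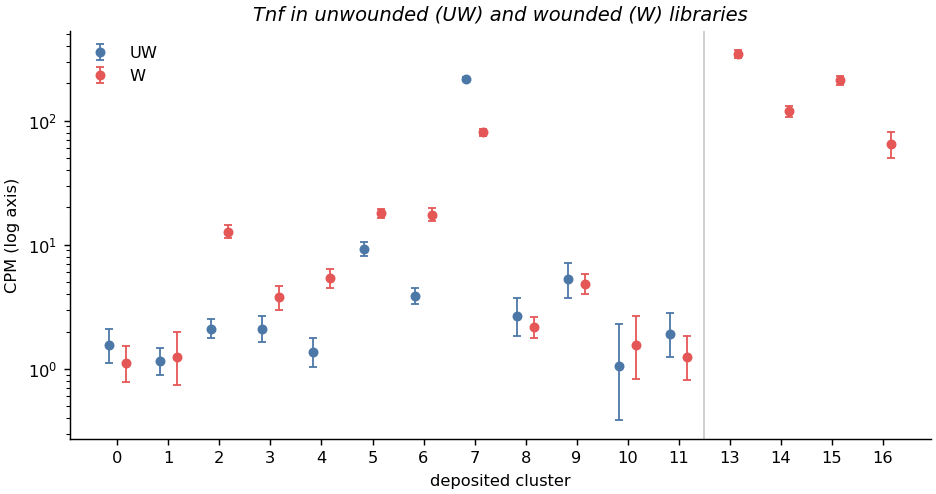
*Tnf* level (CPM, log axis) in each deposited cluster with 50 cells or more, UW in blue and W in red, with 95% Poisson intervals; the grey line sets the immune clusters 13 to 16, which had 50 cells in W only, apart. Cluster 7 lies at 219 CPM in UW and 80.8 CPM in W, while clusters 2, 4, 5 and 6 lie higher in W, and the immune clusters of W span 64.5 to 345 CPM.

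In W the highest level was in cluster 13, at 345 CPM (319 to 373), followed by the Mono-like cluster 15 at 211 CPM (194 to 229), which overlapped cluster 7 of UW. Cluster 14 had 119 CPM (108 to 131) and the T-like cluster 16 had 64.5 CPM (49.97 to 81.9). Cluster 7 thus held 89.9% (89.3 to 90.5) of the 8828 *Tnf* UMIs of UW with 9.19% of its cells, but 21.8% (20.6 to 23.0) of the 4434 *Tnf* UMIs of W with 4.25% of its cells. The immune clusters held 38.6% (37.2 to 40.1) of the W UMIs. Over the whole library *Tnf* was 24.0 CPM in UW and 15.3 CPM in W, and with W cluster levels set to the UW mix of the 12 shared clusters it was 14.98 CPM.

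The cells of cluster 7 differed widely from each other. A *Tnf* UMI was found in 40.6% of them in UW and 38.1% in W, and in 1.77% and 1.92% of stromal-like cells, in which the gene is not expected (median depths 23636 and 21233 against 11853 and 17588 UMIs). After thinning each cell to 5000 UMIs cluster 7 had shares of 27.6% (25.4 to 30.0) and 22.4% (18.9 to 26.3), with 19 and 15 shallower cells left out, against 0.906% and 0.644% in stromal-like cells. The shares in the libraries lay closer together than the amounts per cell did. A cell with a *Tnf* UMI carried a mean of 12.9 of them in UW, up to 138 in a single cell, and 4.801 in W, up to 32.

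Within cluster 7, cells with a *Tnf* UMI also carried more of the inhibitor RNAs, a split made after the *Tnf* values were seen and given as a description. In UW, *Nfkbia* was 861 CPM (846 to 876) in the 614 cells with a *Tnf* UMI and 222 CPM (216 to 228) in the 897 cells without. *Tnfaip3* was 38.1 against 7.91 CPM, *Zc3h12a* 113 against 44.9 CPM and *Relb* 14.5 against 7.16 CPM in the same cells. The 2 sets of cells had medians of 23570 and 23668 UMIs, and the cornified envelope gene *Lce3a* was also higher in the cells with *Tnf*, at 4476 against 1084 CPM. In W, where the medians were 23912 UMIs with and 19780 UMIs without a *Tnf* UMI, *Nfkbia* was 361 against 130 CPM, *Tnfaip3* 108 against 51.6 CPM and *Nfkbiz* 386 against 406 CPM. The trait was not particular to cluster 7. In cluster 5 the same split gave *Nfkbia* at 652 against 320 CPM in UW and 1143 against 794 CPM in W. There *Tnfaip3* was 52.5 against 18.2 CPM in UW and 178 against 82.9 CPM in W, while *Nfkb2* was 10.0 against 9.55 CPM and 8.89 against 9.74 CPM.

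**Figure D2:**
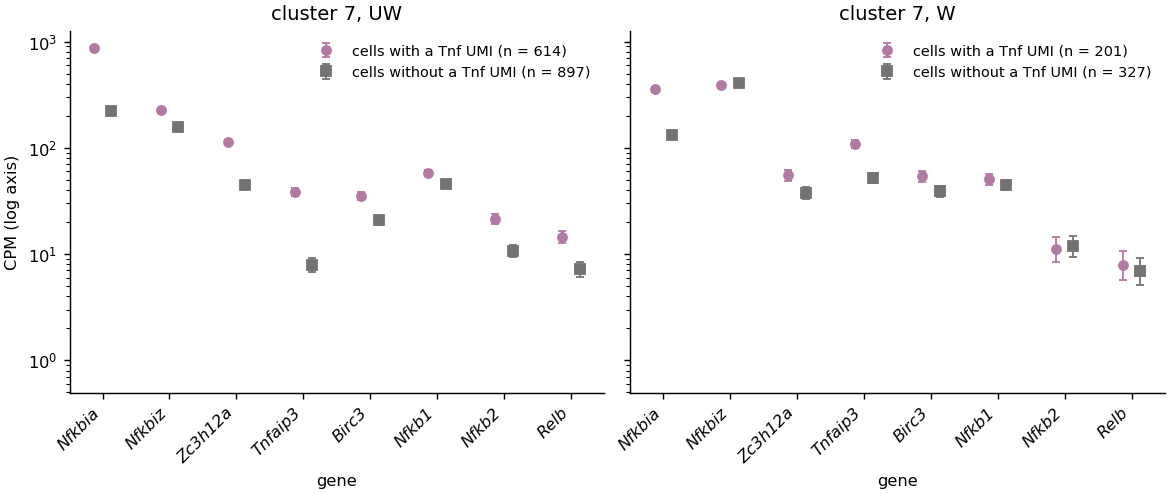
Levels (CPM, log axis, with 95% Poisson intervals) of 8 genes in the cells of cluster 7 with (circles) and without (squares) a *Tnf* UMI, in UW on the left and W on the right. In UW all 8 genes lie higher in the cells with *Tnf*, most of all *Tnfaip3* (38.1 against 7.91 CPM) and *Nfkbia* (861 against 222 CPM), whereas in W the intervals of *Nfkb1*, *Nfkb2*, *Relb* and *Nfkbiz* overlap.

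Of the Rel family genes, *Nfkb1* (chr3:135584655-135691547) encodes p105, which is cut to the p50 subunit and also acts as an IκB. Its interval lay above 0 in 11 of 12 clusters. The smallest of these ratios was that of cluster 9 (0.20, 0.08 to 0.33) and the largest that of cluster 2, with 43.2 CPM in UW and 105 CPM in W (1.28, 1.20 to 1.36). The exception was cluster 7, at 50.6 and 47.2 CPM (-0.10, -0.24 to 0.04). Among groups of at least 50 cells the T-like cluster of W had the highest *Nfkb1* level, 295 CPM (263 to 330).

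*Relb* (chr7:19606217-19629438), the partner of p52 in the alternative pathway, was higher in W in the stromal-like cells, at 22.5 and 49.9 CPM (1.15, 1.02 to 1.28). It was likewise higher in cluster 10, at 24.2 and 48.7 CPM (1.01, 0.73 to 1.30), and in cluster 3, led by *Krt18*, at 13.7 and 28.8 CPM (1.08, 0.90 to 1.25). Clusters 8 (0.35, 0.12 to 0.58) and 11 (0.65, 0.38 to 0.92) were higher too, and in clusters 1, 2, 4, 5, 6 and 9 the interval held 0. In cluster 7 *Relb* was 10.2 and 7.37 CPM (-0.46, -0.82 to -0.13), with an interval that held 0 without cells holding an immune UMI (-0.27, -0.64 to 0.09). *Nfkb2* (chr19:46304320-46312385), which encodes p100 and p52, had no common direction. Its interval lay above 0 in clusters 0, 3, 4 and 10 and below 0 in clusters 1, 7, 8 and 9, and in the epithelial sum it was 10.9 and 11.1 CPM (0.02, -0.05 to 0.10), with the sign of the ratio turned by TMM scaling (-0.18).

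*Nfkbia* (chr12:55489410-55492647) encodes IκBα, which holds NF-κB dimers in the cytoplasm and is made again within the first wave of target genes. In the stromal-like cells it was 396 CPM in UW (388 to 403) and 1242 CPM in W (1230 to 1254), a log2 ratio of 1.65 (1.62 to 1.68). Cluster 10 was close to this, with 386 and 1134 CPM (1.55, 1.49 to 1.62). Thinned to 5000 UMIs, 77.7% of stromal-like cells in UW and 98.4% in W had an *Nfkbia* UMI.

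In the epithelium the ratio of *Nfkbia* followed the cluster. It was highest in cluster 6 (124 and 348 CPM, 1.49), then in cluster 5, led by *Serpinb3a* and *Krt4* (364 and 887 CPM, 1.29), cluster 2 (273 and 548 CPM, 1.00) and cluster 4 (280 and 543 CPM, 0.96). Cluster 8, led by the cell division gene *Top2a*, differed little (566 and 595 CPM, 0.07), and cluster 11, led by genes of DNA replication such as *Ung* and *Hells*, was slightly lower in W (505 and 458 CPM, -0.14). Cluster 7 was again the exception, at 485 CPM in UW (478 to 492) and 230 CPM in W (221 to 239), a log2 ratio of -1.08 (-1.13 to -1.02). Among the immune clusters, cluster 13 stood at 3366 CPM (3283 to 3451), well above the 1214 to 1396 CPM of clusters 14 to 16.

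*Nfkbiz* (chr16:55811375-55838899) encodes IκBζ, a nuclear IκB that can switch on secondary targets. Its 3 highest levels were all in W epithelium: 772 CPM in cluster 4, 657 CPM in cluster 2 and 539 CPM in cluster 6, against 230, 210 and 132 CPM in UW. The log2 ratios were 1.74 (1.71 to 1.78), 1.65 (1.62 to 1.68) and 2.03 (1.98 to 2.08). Unlike *Tnf* and *Nfkbia*, *Nfkbiz* was higher in W in cluster 7 as well (187 and 397 CPM, 1.09, 1.04 to 1.14). Cluster 9, led by *Wfdc18* and *Dlk2*, was the only one of the 12 with an interval below 0, at 207 and 196 CPM (-0.09, -0.17 to -0.0023), and it held 0 without cells holding an immune UMI (-0.08, -0.16 to 0.0088).

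*Tnfaip3* (chr10:19000910-19015657) encodes A20, a ubiquitin-editing enzyme that ends TNF receptor signalling. It was the only member whose interval lay above 0 in all 12 clusters. Cluster 2 had 3.66 CPM in UW and 73.0 CPM in W (4.32, 4.12 to 4.53), cluster 6 had 3.31 and 58.1 CPM (4.13, 3.88 to 4.40), and cluster 4 had 4.35 and 60.1 CPM (3.79, 3.57 to 4.01). In cluster 2 the share of cells with a *Tnfaip3* UMI, thinned to 5000 UMIs, was 1.54% for UW (interval 1.03 to 2.20) against 25.1% for W (22.3 to 28.1), and in stromal-like cells it was 5.48% against 27.1%.

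The smallest *Tnfaip3* ratios were in clusters 8 (0.29, 0.09 to 0.49) and 11 (0.35, 0.07 to 0.64) and in cluster 9 (0.69, 0.46 to 0.93). The stromal-like cells had 13.1 and 71.6 CPM (2.45, 2.29 to 2.61), and cluster 10 had 5.78 and 44.6 CPM (2.95, 2.43 to 3.51). In cluster 7 *Tnfaip3* was 20.3 and 76.2 CPM (1.91, 1.76 to 2.05). Among groups of at least 50 cells the T-like cluster of W was highest at 397 CPM (360 to 438), and the 7 T-like cells of UW held 13 *Tnfaip3* UMIs.

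**Figure D3:**
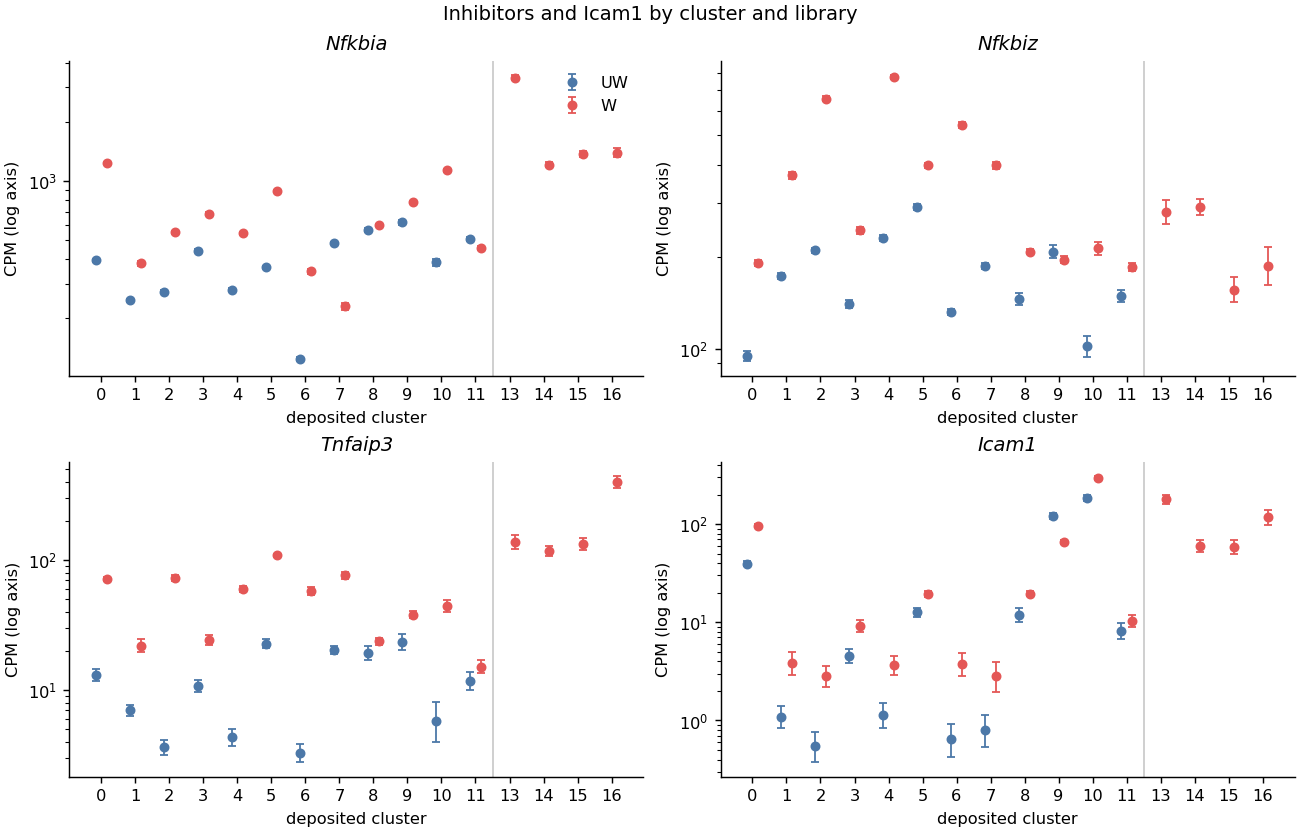
Levels (CPM, log axis, with 95% Poisson intervals) of *Nfkbia*, *Nfkbiz*, *Tnfaip3* and *Icam1* by deposited cluster in UW (blue) and W (red). *Nfkbia* is lower in W in cluster 7 (485 to 230 CPM), *Icam1* in cluster 9 (121 to 65.6 CPM), and *Tnfaip3* is higher in W in all 12 clusters found in both libraries.

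*Zc3h12a* (chr4:125118423-125127840) encodes regnase-1, an RNase that degrades cytokine mRNAs. It was higher in W in clusters 2 (16.3 and 39.1 CPM, 1.26), 4 (23.2 and 50.9 CPM, 1.13) and 1 (17.8 and 36.7 CPM, 1.04). In cluster 7 it was 73.0 CPM in UW and 45.2 CPM in W (-0.69, -0.83 to -0.56), and in cluster 9 it was 37.9 and 30.0 CPM (-0.34, -0.53 to -0.14). Cluster 7 of UW and cluster 13 of W (77.9 CPM, 65.7 to 91.8) had the 2 highest *Zc3h12a* levels, and their intervals overlapped each other and that of the T-like cluster (71.2 CPM, 55.9 to 89.4).

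*Birc3* (chr9:7848699-7873186) encodes cIAP2, a ubiquitin ligase at the TNF receptor that protects from cell death. Its interval lay above 0 in 11 of 12 clusters, with cluster 9 as the exception (0.14, -0.22 to 0.50) and with cluster 1 (0.24, 0.03 to 0.45) as a further one without cells holding an immune UMI (0.14, -0.10 to 0.37). The largest ratios were in clusters 6 (6.87 and 25.5 CPM, 1.89) and 2 (6.69 and 23.4 CPM, 1.81). Stromal-like cells had 19.0 and 46.7 CPM (1.30, 1.16 to 1.44) and cluster 7 had 26.6 and 45.4 CPM (0.77, 0.62 to 0.93).

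*Icam1* (chr9:21015985-21028817) encodes the surface ligand that leukocyte β2 integrins bind. It was a gene of a few cell groups: in UW, cluster 10 had 184 CPM (173 to 196), cluster 9 had 121 CPM (114 to 130) and the stromal-like cells had 39.3 CPM (37.0 to 41.7), while the other epithelial clusters lay between 0.544 and 12.7 CPM. In W, cluster 10 had 293 CPM (282 to 305; log2 ratio 0.67, 0.57 to 0.78) and the stromal-like cells had 96.2 CPM (92.9 to 99.7; 1.29, 1.19 to 1.39). Cluster 9 went the other way, to 65.6 CPM (62.4 to 68.8; -0.89, -1.01 to -0.77), and its cells with an *Icam1* UMI, thinned to 5000 UMIs, made up 36.2% for UW (interval 32.0 to 40.6) against 26.0% for W (23.2 to 28.9). Clusters 2 and 6 had the largest ratios (2.39 and 2.55) at levels of at most 3.76 CPM.

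The summed epithelium gave another picture of *Icam1*, which shows how the mix of clusters enters. Over the epithelial clusters *Icam1* was 5.63 CPM in UW and 16.7 CPM in W (1.57, 1.49 to 1.65). With W levels set to the UW mix it was 7.57 CPM, a log2 ratio of 0.43. Cluster 9 held 49.3% of the epithelial *Icam1* UMIs in UW and 40.8% in W, and its part of all epithelial UMIs was 2.29% in UW and 10.4% in W. *Tnf* moved less with the mix and more with cluster 7: the epithelial sum was 26.4 and 11.05 CPM (-1.25, -1.32 to -1.19), at the UW mix the ratio was -0.69, and without cluster 7 it was 1.39. The ratio of *Tnfaip3* was 2.37 in the sum, 2.48 at the UW mix and 2.54 without cluster 7. Whether clusters took up more or fewer cells in the tissue or in the dissociation cannot be told apart.

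**Figure D4:**
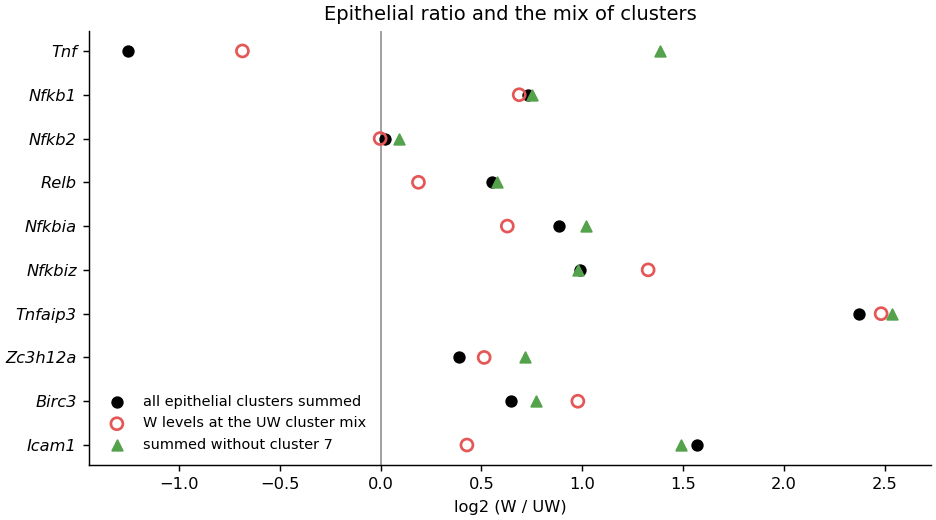
Log2 ratio of W over UW in the epithelium for the 10 genes, for all epithelial clusters summed (black), for W levels at the UW cluster mix (open red) and for the sum without cluster 7 (green triangles). *Tnf* goes from -1.25 to 1.39 when cluster 7 is left out, and *Icam1* from 1.57 to 0.43 at the UW mix, whereas the 3 values of *Tnfaip3* lie between 2.37 and 2.54.

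Against all genes, the members were counted cluster by cluster. In the stromal-like cluster 0, 6 of 10 members were at least 2-fold higher in W (*Relb*, *Nfkbia*, *Nfkbiz*, *Tnfaip3*, *Birc3* and *Icam1*), where 7.34% of the 14245 genes with at least 20 UMIs were, and none was 2-fold lower. In cluster 10 the count was 6 of the 9 members with 20 UMIs, against 4.97% of genes. The median member log2 ratio was 1.08 in cluster 0 and 1.06 in cluster 10, beside -0.15 and -0.09 for all genes.

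Among the epithelial-like clusters the count differed from cluster to cluster. It was 8 of 10 in cluster 2 (13.2% of genes), 7 in cluster 4 (13.8%), 6 in cluster 6 (17.2%), 4 in cluster 1 (14.7%), 3 in cluster 3 (15.1%) and 2 in cluster 5 (12.7%). No member was 2-fold higher in cluster 8 (10.8%), cluster 9 (9.12%) or cluster 11 (12.7%), where the background share would give about 1 gene of 10. In cluster 7, 3 members were 2-fold higher (*Nfkbiz*, *Tnfaip3* and *Icam1*; 23.2% of genes) and 2 were 2-fold lower (*Tnf* and *Nfkbia*; 6.48%), with a member median of -0.25 beside 0.26 for all genes. TMM scaling, which moved the ratios of cluster 7 down by 0.26, took *Nfkbiz* under 2-fold (0.83) and left 2 members higher (16.6% of genes), and a minimum of 100 UMIs left out *Icam1*.

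For the summed epithelium, 2 members were 2-fold higher (*Tnfaip3* and *Icam1*; 21.8% of genes) and 1 lower (*Tnf*; 8.77%), a share near the background. The all-gene median was 0.22 there, and TMM scaling moved every epithelial ratio down by 0.21. Over the 12 clusters, 88 of the 120 member ratios had an interval above 0, 12 had one below 0 and 20 held 0, while of 150063 pairs of a gene with at least 20 UMIs and a cluster 32.0% lay above 0 and 34.8% below. Of the 12 below 0, 5 were in cluster 7, where 22.3% of genes lay below 0, and 4 in cluster 9, where 33.6% did, a share near that of the members. Without cells holding an immune UMI 86 of the 120 lay above 0 and 10 below, and the 4 intervals that came to hold 0 were those of *Birc3* in cluster 1, *Tnf* in cluster 3, *Relb* in cluster 7 and *Nfkbiz* in cluster 9.

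**Figure D5:**
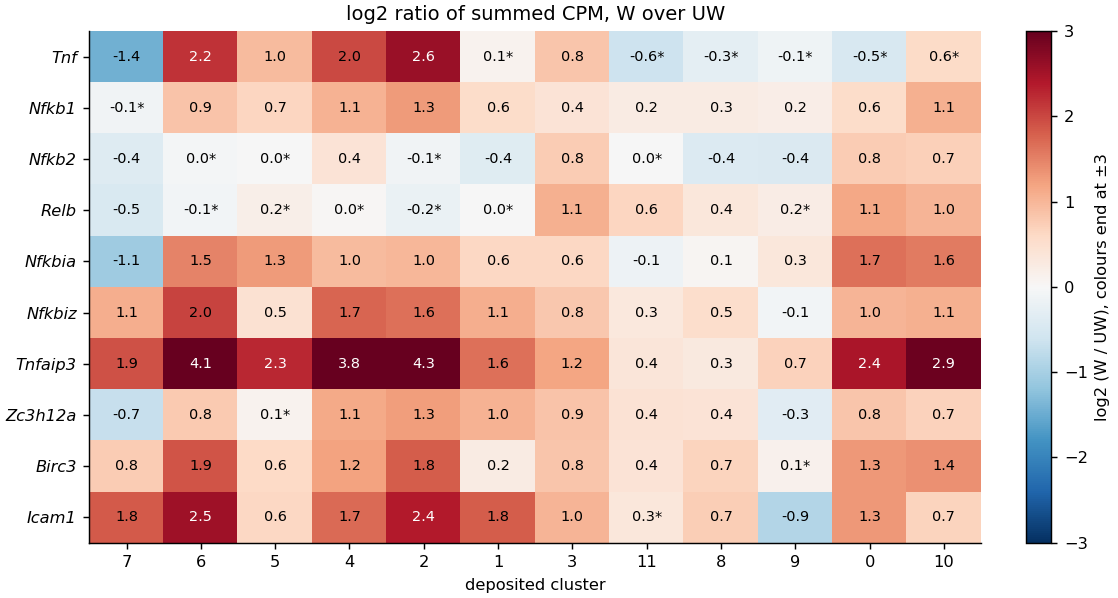
Log2 ratio of W over UW for the 10 genes (rows) in the 12 clusters found in both libraries (columns, with cluster 7 first and the stromal-like cluster 0 and cluster 10 last); red is higher in W, blue lower, and a star marks a ratio whose 95% counting interval holds 0. The *Tnfaip3* row is red throughout, from 0.29 to 4.32, and clusters 7 and 9 hold 9 of the 12 ratios below 0 beyond counting error, in clusters where 22.3% and 33.6% of all genes lie below 0.

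Counted within single cells thinned to 5000 UMIs, more of the 10 genes were found per cell in W in each of the 12 clusters. The same count was not made for other genes, so it has no background to be read against. In cluster 7 the median ratio of all genes also lay above 0 (0.26 on the log2 scale). Stromal-like cells had a mean of 1.89 of the 10 in UW (SD 1.04 over 2318 cells) and 3.097 in W (SD 1.26 over 1708 cells). Cluster 6 had 1.10 (SD 0.947) and 2.33 (SD 1.27), and its share of cells with none of the 10 was 29.5% in UW and 3.84% in W. Cluster 9 differed least at this depth, at 2.49 (SD 1.25) and 2.65 (SD 1.19). At 2000 UMIs it had 1.39 and 1.60, and clusters 7 (1.15 and 1.28) and 11 (1.01 and 1.13) differed less. At 5000 UMIs cluster 7 had 2.08 (SD 1.42) and 2.41 (SD 1.33), although its *Tnf* and *Nfkbia* sums were lower in W.

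Leukocyte RNA and stress genes also differed between the libraries. The summed level of 7 leukocyte genes (*Ptprc*, *Tyrobp*, *Cd52*, *Lcp1*, *Laptm5*, *Srgn* and *Coro1a*) in clusters 0 to 11 ranged over 0.692 to 6.65 CPM for UW and 10.7 to 129 CPM for W, where none of the 7 was at 0, beside 5421 to 13928 CPM in the immune clusters. Leaving out the cells of clusters 0 to 11 with a UMI of 6 of these genes (20.6% of W and 2.31% of UW) gave a *Tnf* log2 ratio of 2.72 in cluster 2, 2.14 in cluster 6 and -1.48 in cluster 7, and *Tnfaip3* ratios of 4.25 in cluster 2 and 2.42 in the stromal-like cells. A list of 5 neutrophil genes (*S100a8*, *S100a9*, *Csf3r*, *Cxcr2* and *Retnlg*), none of them in that filter, also had a higher summed level in W in all 12 clusters. It ranged over 2.03 to 155 CPM for UW and 87.6 to 1050 CPM for W, and its part in the member ratios was not tested. The summed level of 16 immediate early genes was lower in W in 11 of the 12 clusters, with cluster 4 as the exception (ranges 12384 to 23321 CPM for UW, 6410 to 19389 CPM for W), and its part in the member ratios was not tested.

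Over the 28 groups of cluster and library with at least 50 cells, 41 of the 45 pairs of members had a positive Pearson r of log2(CPM + 1), with *Relb* and *Icam1* the closest pair (r = 0.84) and *Relb* and *Nfkbiz* the most opposed (r = -0.29). The groups share 2 libraries and their depth, and the share of positive pairs among all genes was not computed. These values are therefore descriptions, and the 41 pairs have no background to be read against. Among 11673 other genes with at least 1000 UMIs, the 3 most like *Tnf* were *Il1r2* (r = 0.89), *Nfkbib* (0.88) and *Malt1* (0.87), and those most like *Nfkbia* were *Fas* (0.87), *Nfkbie* (0.86) and *1700017B05Rik* (0.85). For *Nfkbiz* they were the cornified envelope gene *Sprr1a* (0.92), *Slc26a4* (0.87) and *Etfb* (0.87), and for *Tnfaip3* *Casp4* (0.89), *Clec2d* (0.83) and *Slfn8* (0.83). *Relb* was most like *Ubash3b* (0.95), *Brd2* (0.95) and *Zfp622* (0.94), *Icam1* like *Tle1*, *Stard5* and *Zbtb2* (all 0.93), and *Birc3* like *Gm8797* (0.85), *Cflar* (0.84) and *Gbp9* (0.84). For *Nfkb1* they were *Kin* (0.90), *Utp23* (0.88) and *C030034I22Rik* (0.88), for *Nfkb2* *Samsn1* (0.88), *Ptprc* (0.87) and *Rac2* (0.87), and for *Zc3h12a* *Parp10* (0.83), *Psd4* (0.81) and *Lyn* (0.81).

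The wider pathway was read from a list of 73 genes of TNF family ligands, receptors, adaptors, kinases, Rel and IκB proteins, feedback inhibitors and partners of ICAM1, 63 of them not members. In the stromal-like cells 10 of the 54 with 20 UMIs were at least 2-fold higher in W (18.5%, beside 7.34% of all genes) and 3 lower (5.56% beside 9.67%), with a median of 0.14 beside -0.15. The 10 included *Ltb* (5 UMIs in UW and 16 in W), *Tnfrsf1b* (2 and 32) and *Itgb2* (1 and 28), at most at 0.986 CPM in W. In cluster 10, 10 of 49 were higher (20.4% beside 4.97%) and 1 lower (2.04% beside 6.63%). In the epithelial sum 19 of 61 were higher (31.1% beside 21.8%) and 3 lower (4.92% beside 8.77%), but the list median of 0.10 lay under the 0.22 of all genes. The 19 included *Itgb2* (4 UMIs in UW and 138 in W), *Itgal* (1 and 26) and *Tnfrsf1b* (14 and 168), at most at 0.703 CPM in W. In clusters 13 to 16 of W *Itgb2* lay between 87.6 and 249 CPM and *Itgal* between 10.7 and 88.5 CPM. The part of leukocyte RNA in these counts was not tested. In cluster 7 the 8 of 45 that were higher made up less than the all-gene share (17.8% beside 23.2%) with 4 lower (8.89% beside 6.48%), and the list median was -0.06 beside 0.26. In cluster 9, 6 of 51 were higher (11.8% beside 9.12%) and 4 lower (7.84% beside 9.76%), with a median of -0.27 beside -0.06. *Tnfrsf1a*, the receptor TNFR1, was higher in W in stromal-like cells (68.3 and 145 CPM, 1.09) and in the epithelial sum (54.9 and 122 CPM, 1.15). *Tnfrsf1b*, the receptor TNFR2, lay between 57.3 and 224 CPM in clusters 13 to 16 of W and at most at 2.52 CPM in clusters 0 to 11.

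Of the other TNF family receptors, *Tnfrsf12a*, which binds TWEAK, was higher in W in stromal-like cells (17.8 and 102 CPM, 2.51) and in the epithelial sum (28.3 and 125 CPM, 2.15). In the stromal-like cells *Tnip1*, a partner of A20 (1.90), *Nfkbie*, which encodes IκBε (1.63), and the kinase gene *Map3k8* (1.22) made up the rest of the 5 largest pathway ratios. The 5 smallest were *Zfp36*, which encodes the mRNA-decay factor tristetraprolin (581 and 179 CPM, -1.70), the receptor genes *Cd40* (-1.22) and *Tnfrsf21* (-0.93), and the kinase pathway genes *Map3k14* (-0.84) and *Tab3* (-0.68).

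In the epithelial sum the other large ratios were at low levels: *Tnfsf9* (3.41), *Traf1* (3.29) and *Tnfsf15* (3.22) reached at most 1.43 CPM in W, and *Tnip3*, another partner of A20, 11.1 CPM (2.60). The smallest were *Itgam*, which encodes the αM integrin chain (83.1 and 28.6 CPM, -1.54, but -0.71 at the UW mix), the mRNA-decay genes *Zfp36l1* (-1.20) and *Zfp36* (-0.89, and -0.38 at the UW mix), the deubiquitinase gene *Cyld* (54.2 and 27.1 CPM) and the kinase gene *Chuk* (-0.71). At the UW mix the 5 largest ratios were also smaller, between 1.44 (*Tnfrsf12a*) and 2.92 (*Traf1*), and none of the 10 named here changed sign. The αM chain pairs with the β2 chain of *Itgb2* to bind ICAM1. In cluster 7 *Itgam* was 466 CPM in UW and 229 CPM in W, while *Itgb2* had 0 UMIs there in UW, which allows up to 3 by a one-sided limit, and 6 in W. In the Mono-like cluster both were high, at 432 and 249 CPM.

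The hallmark list of TNF-via-NF-κB targets in the study's table of gene sets, 184 genes without the members, gave 45 of 171 genes at least 2-fold higher in the stromal-like cells (26.3%, beside 7.34% of all genes) and 16 lower (9.36% beside 9.67%), with a median of 0.31 beside -0.15. In cluster 10 it gave 56 of 169 higher (33.1% beside 4.97%) and 2 lower (1.18% beside 6.63%), with a median of 0.47 beside -0.09. In the epithelial sum 54 of 181 were higher (29.8% beside 21.8%) and 8 lower (4.42% beside 8.77%), with a median of 0.32 beside 0.22. In cluster 7 it gave 49 of 153 higher (32.0% beside 23.2%) and 5 lower (3.27% beside 6.48%). In cluster 9 it gave 22 of 168 higher (13.1% beside 9.12%) and 24 lower (14.3% beside 9.76%), with a median of -0.38 beside -0.06. The study chose this list, so its counts are no independent evidence of a direction.

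The largest ratios of that list in stromal-like cells were the chemokine genes *Ccl2* (19.1 and 861 CPM, 5.49), *Cxcl10* (5.32), *Cxcl2* (5.02) and *Cxcl1* (4.73) and the autophagy gene *Dram1* (5.18), and the smallest were the immediate early genes *Egr1* (-2.52), *Fos* (-2.50), *Fosb* (-1.97) and *Egr2* (-1.85) and the growth-arrest gene *Btg2* (-1.86). In the epithelial sum the largest were *Ccl2* (0.372 and 19.97 CPM, 5.74), the matrix gene *Tnc* (5.52, and 4.76 at the UW mix), *Ccl5* (5.37), *Cxcl2* (4.28) and the leukocyte gene *Plek* (3.88, at 1.15 CPM in W). The smallest were *Pfkfb3* (-1.86), the cytokine-signalling inhibitor gene *Socs3* (243 and 69.1 CPM, -1.82), *Egr1* (-1.75), *Rhob* (-1.46) and the cell cycle inhibitor gene *Cdkn1a* (-1.40).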

How the data were processed

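Corneal cells of 1 unwounded (UW) and 1 wounded (W) pooled library were sequenced with a 10x Genomics 3' kit, named v3 in the labels and V2 in the methods. The authors ran Cell Ranger 3.1.0 to obtain a UMI count for every gene of every cell, filtered cells in Seurat, identified doublets with DoubletFinder, removed cells with a dissociation signature, and deposited the counts without normalization. In the deposited metadata 305 UW and 164 W cells still carried a doublet call of a first run, and they were kept here and left out as an alternative. The methods name the mm10 reference and the labels mm9; positions here are those of GENCODE M21 (GRCm38), in which 19925 of 20198 symbols were found. Deposited cells had 501 to 7570 genes and at most 9.99% mitochondrial UMIs. Clusters were the deposited ones.

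Counts were summed per cluster and library and given as CPM with exact Poisson intervals. Shares have Clopper-Pearson intervals, and ratios the exact interval of the split of the 2 sums. A sum of 0 allows up to 3 counts (a one-sided limit). With 1 library per condition no test was made, and a gene was counted as higher or lower when past 2-fold with at least 20 UMIs in both libraries together. The epithelial sum joins clusters 1 to 9 and 11. Named genes are all members, the 5 largest and 5 smallest ratios of each list with at least 20 UMIs in each library, and the 3 genes most like each member. *Lce3a*, *Tnfrsf1b*, *Itgb2*, *Itgal* and *Ltb* were named after their values were seen. The members and lists were chosen with earlier results of these data known. Python 3.11.15 (numpy 2.4.6, pandas 2.3.3, scipy 1.17.1), edgeR 4.0.16 and DESeq2 1.42.0 (scaling factors only) were used, and the computation was tested on simulated data.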

Additional observations from a re-analysis of the deposited data

Results flagged for a closer look

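*Tnf* and *Nfkbia* were at least 2-fold lower in W in cluster 7 and at least 2-fold higher in W in other clusters, each with a counting interval clear of 0. The *Tnf* log2 ratio was -1.44 in cluster 7, against 2.60 in cluster 2, 1.98 in cluster 4 and 2.17 in cluster 6. The *Nfkbia* log2 ratio was -1.08 in cluster 7, against 1.65 in cluster 0, 1.00 in cluster 2, 1.29 in cluster 5, 1.49 in cluster 6 and 1.55 in cluster 10. The difference between clusters was not tested, since each condition had 1 library.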

How the results depend on the processing

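Of 320 single-member ratios recomputed in the epithelial sum and clusters 0, 7 and 10, 315 kept their sign. *Tnf* in the epithelial sum turned to 1.39 without cluster 7 (chosen after seeing the data, like leaving out cluster 9 or the 52 shared barcodes), *Nfkb2* there turned under TMM, median-of-ratios scaling and the UW mix, and *Tnf* in cluster 10, on 19 UMIs, turned without cells holding an immune UMI. The 2 members 2-fold higher in the epithelial sum became 4 without clusters 8 and 11 (20.1% of genes) or without cluster 7 (20.9%), and 6 at 1.5-fold (34.4%). The epithelial median of 0.69 became 0.49 with TMM, 0.48 with median-of-ratios scaling, 0.81 without clusters 8 and 11, 0.88 without cluster 7, 0.76 as mean CPM per cell and 0.57 at the UW mix. With these 2 scalings the median became 1.23 and 1.24 in cluster 0 and -0.50 and -0.51 in cluster 7. Thinning lowers shares by its construction: for *Tnf* from 40.6% to 27.6% (UW) and 38.1% to 22.4% (W) in cluster 7, from 1.77% to 0.906% and 1.92% to 0.644% in cluster 0, and from 8.94% to 4.12% and 12.6% to 4.35% in the epithelial sum. With the stricter cell filter the W share of *Tnf* UMIs was 23.4% in cluster 7 and 36.8% in immune clusters. The excess of members per cell in W, 0.81 in the epithelial sum, 1.21 in cluster 0, 1.15 in cluster 10 and 0.33 in cluster 7, became 0.60, 0.90, 0.91 and 0.13 at 2000 UMIs. No paired analysis was possible because each condition had 1 library. The cause of the other changes was not tested. No interval covers the spread between cells or between mice, and the intervals of ratios on few UMIs, such as those of *Tnf* in cluster 10, are wide.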
